A study of Homo sapiens with 5 samples.

Results

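The retinoid genes described here are the carriers, enzymes and nuclear receptors that bring vitamin A to the nucleus as retinoic acid: CRABP1, CRABP2, RBP4, ALDH1A1, ALDH1A2, CYP26A1, RARA, RARB and RARG. They were chosen by symbol, as every probe set of the array that GEO's platform annotation assigns to 1 of these 9 genes. This gave 19 of the 22215 probe sets tested and 8 of the 9 genes. No probe set was named for CRABP1 here, and it was not analysed here. The probe sets divide into 5 for RARB, 4 for RARA, 3 for RARG, 2 each for RBP4 and ALDH1A2, and 1 each for CRABP2, ALDH1A1 and CYP26A1.

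The RNA came from HES2, an established human embryonic stem cell (hESC) line, and was measured on Affymetrix Human Genome U133A 2.0 arrays. One group expressed wt miR-122 (2 arrays, replicates 1 and 2) and the other a mutant miR-122 with a changed seed (3 arrays, replicates 1 to 3), each from a lentiviral vector in which the H1 promoter drives the miRNA and a separate promoter drives a red fluorescent reporter. All cells were grown on human foreskin feeder cells before differentiation. They then differentiated spontaneously for 2 weeks in KO medium without feeder cells or bFGF. Both groups had been transduced with virus, and no array held an untransduced control. Cells that escaped transduction may be present in either group. According to the methods, arrays of 1 group are independent experiments. The question was whether wt miR-122, a miRNA of the liver, changed the course of differentiation. The values are log2 intensities after RMA, a procedure that corrects background, equalizes the distribution over arrays and gives 1 value per probe set. Differences are wt minus mutant on the log2 scale. Each comes with its standard error (SE) and with an adjusted p, which is that of limma over all probe sets tested unless another test is named, and a probe set passed at an adjusted p under 0.05. A percentile gives the place of a probe set's mean among all probe sets tested and serves only to show which are dim. Levels of different probe sets are not compared with each other.

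The miRNA expressed by the vector is shown because it is the only planned difference between the groups. The mature strand of the RefSeq annotation (GRCh38.p14, chr18:58451088-58451109, + strand) has its seed, bases 2 to 8, in capitals, and the mutant form differs within this seed.
hsa-miR-122-5p: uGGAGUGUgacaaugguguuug

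Retinol travels in plasma bound to RBP4. Inside cells it is oxidized first to retinal and then, by the ALDH1A enzymes, to retinoic acid. CRABP1 and CRABP2 bind retinoic acid in the cytoplasm, and CYP26A1, a cytochrome P450, oxidizes and so clears it. RARA, RARB and RARG are ligand-dependent transcription factors that act with a retinoid X receptor (RXR) as partner on paired half-sites in DNA. Retinoic acid patterns the embryonic hindbrain, trunk and foregut and is widely used to drive differentiation of embryonic stem cells, and RARB and CYP26A1 are themselves textbook targets of the receptors.

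The receptor half-sites lie in the promoters of those same genes. In windows from 250 bases before to 50 bases after the transcript starts listed by RefSeq, a direct repeat with 5 bases between the half-sites (DR5, searched on either strand) was found for RARB and CYP26A1 and for no other of the 8 genes, which have 17 windows in all. A half-site was the consensus AGGTCA or one of its common variants, which are AGTTCA as seen in both of these genes, GGTTCA as seen in RARB, and also GGGTCA. The repeat was present in 0.0883% of the 35116 windows of this length. Repeats with 1 or 2 bases between the half-sites were found in none of the 17 windows, and in 0.131% and 0.0399% of all windows. The stretches are given along the gene's own strand in GRCh38.p14, with the half-sites in capitals. That of RARB lies at chr3:25428204-25428233 (+ strand), with the repeat 53 to 37 bases before 1 of 4 starts. That of CYP26A1 lies at chr10:93073797-93073826 (+ strand), with the repeat on the opposite strand, 90 to 74 bases before 1 of 2 starts.
RARB: gggtagGGTTCAccgaaAGTTCActcgcat
CYP26A1: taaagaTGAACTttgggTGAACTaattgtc
These letters are a description of the DNA, and binding was not measured.

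CYP26A1 rose in wt miR-122-expressing cells, and no other member probe set passed. Of the 19 probe sets, 1 rose, none fell and 18 did not pass, where 0.194% of all probe sets rose and 0.189% fell (0.383% in both directions). At an unadjusted p under 0.05 from limma, 3 were higher and none lower, 15.8% of the members against 14.4% of all probe sets (8.06% higher and 6.37% lower). Both wt arrays lay above all mutant arrays on 5 member probe sets and below them on none. The groups thus did not overlap on 26.3% of the members, against 32.7% of all probe sets (20.3% with wt above and 12.5% with wt below), so this count does not set the members apart. The wt mean was higher on 14 of 19 probe sets, and on 57.9% of all probe sets, and the median log2 difference was 0.11, compared to 0.025 over all probe sets tested. Over the members the SE of a difference had a median of 0.097 and ranged from 0.078 to 0.33, and with 3 arrays against 2 an exact permutation test cannot give a two-sided p below 0.1.

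**Figure D1:**
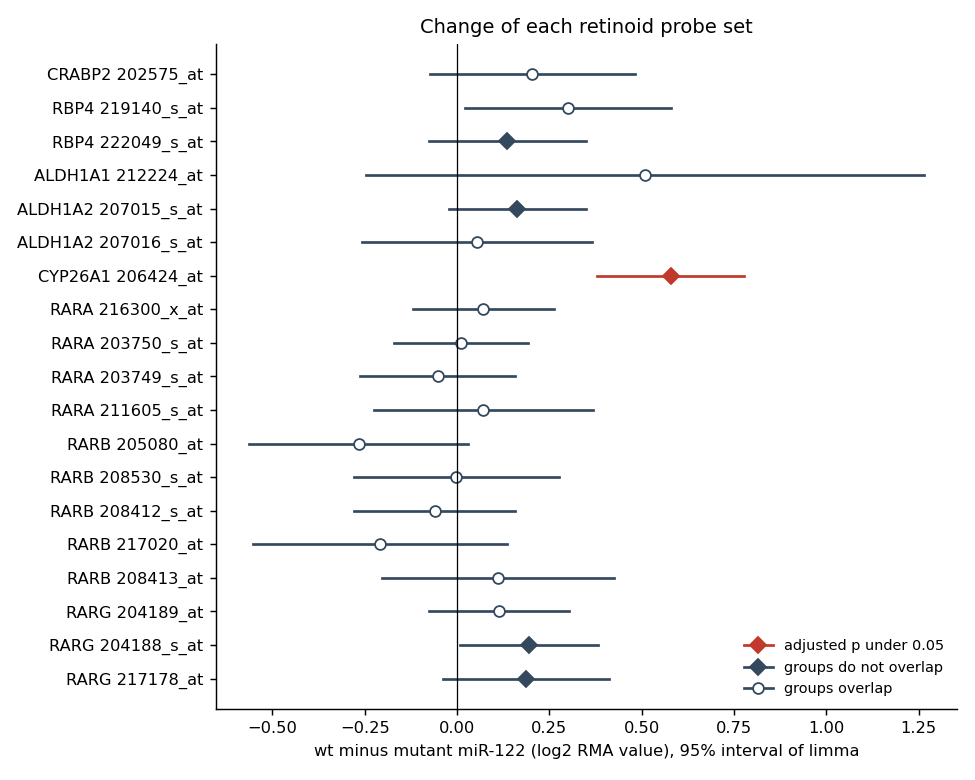
Log2 difference of wt minus mutant miR-122-expressing cells (x axis) for each of the 19 probe sets, with the 95% interval of limma as a line. The red diamond is CYP26A1 at 0.58, dark diamonds are probe sets whose groups do not overlap, and open circles are those whose groups overlap; most intervals include 0.

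Of 13 listed markers of undifferentiated hESC, 9 had a probe set that the annotation assigns to that gene alone. Only such genes are called measured in the lists here. POU5F1, ZFP42, TDGF1 and SALL4 had none, which does not mean that the array lacks them. Of the 9 measured, 2 rose (DNMT3B and UTF1) and 7 did not pass, where 0.194% of all probe sets rose. All 9 means were higher in wt, against 57.9% of all probe sets. At an unadjusted p under 0.05 from limma 8 of the 9 were higher and 0 lower, against 8.06% and 6.37%. Both wt arrays lay above all mutant arrays for all 9, against 20.3%. The summed unlogged level of the 9 was 8501 to 9616 on the mutant and 11963 to 12216 on the wt arrays, and none was below the 25th percentile. The paper names POU5F1, NANOG and SOX2 among the probes most upregulated on these same arrays, so the direction of this list is not independent evidence. Of 12 mesenchymal markers none passed, with 11 means lower in wt, and their sum was 24290 to 30128 on the mutant and 17739 to 19660 on the wt arrays. At an unadjusted p under 0.05 from limma 9 of the 12 were lower and 0 higher, against 6.37% and 8.06% of all probe sets. Both wt arrays lay below all mutant arrays for 8 of them and above for 0, against 12.5% and 20.3%. The sums of 8 neural progenitor markers overlapped, at 4971 to 5986 and 5129 to 5423, as did those of 12 hepatic and visceral endoderm markers, at 789 to 1409 and 1053 to 1699. Of 9 trophoblast markers HSD3B1 fell, and the sums were 4893 to 6342 and 4664 to 4803. In such bulk RNA, fewer cells of a type and less RNA per cell cannot be told apart. The 3' minus 5' difference of the GAPDH control probe sets, a sign of RNA integrity, was 0.04 to 0.14 on the mutant and 0.05 to 0.08 on the wt arrays (log2). That of the ACTB control probe sets was larger, at 0.23 to 0.43 on the mutant and 0.32 to 0.35 on the wt arrays, and highest on mutant replicate 2.

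Catabolism of retinoic acid was represented by CYP26A1, which retinoic acid itself induces and whose promoter holds the repeat shown above. On probe set 206424_at its RMA values were 8.11, 8.03 and 8.23 on mutant replicates 1 to 3, and 8.67 and 8.73 on wt replicates 1 and 2. The lower wt array stood above the highest mutant array, and the arrays within each group lay close together. The mean of the mutant arrays was 8.12 ± 0.10 (SD, n = 3) and that of the wt arrays 8.70 ± 0.04 (SD, n = 2). CYP26A1 was thus 0.58 higher in wt on the log2 scale (SE 0.086), with an adjusted p of 0.0447 in the limma fit. This is a 1.49-fold higher level, with a 95% interval of 1.3-fold to 1.71-fold, at the 78.3rd percentile. The difference was 0.53 to 0.63 when any array was left out, but the call ended each time, with an adjusted p from 0.0639 without mutant replicate 3 to 0.261 without wt replicate 2. The methods' test on these values also ended the call once adjusted, with an adjusted p of 0.38. The summed levels of the hESC and mesenchymal markers given above did not overlap between the groups on the same arrays. Those of the trophoblast markers were parted only narrowly, at 4893 on mutant replicate 1 and 4803 on wt replicate 1. The part of these markers in the value of CYP26A1 was not tested.

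Synthesis of retinoic acid was measured by ALDH1A1 and ALDH1A2, aldehyde dehydrogenases that turn retinal into retinoic acid. On 212224_at, ALDH1A1 had RMA values of 4.91, 4.94 and 4.80 on the mutant arrays, 6.08 on wt replicate 1 and 4.70 on wt replicate 2. Only wt replicate 1 was high, and wt replicate 2 was the lowest of the 5 arrays. The log2 difference of 0.51 (SE 0.33, 95% interval -0.25 to 1.26, adjusted p = 0.527) therefore rested on 1 array, and was -0.18 without wt replicate 1 and 1.20 without wt replicate 2. With a range of 1.38 over the 5 arrays it was the single member probe set with a range above 1 on the log2 scale, as 1.06% of all probe sets had. The hepatic and visceral endoderm markers also had their highest sum, 1699, on wt replicate 1, and its part in the value of ALDH1A1 was not tested.

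ALDH1A2, is the main retinoic acid-producing enzyme of the early embryo. On 207015_s_at the RMA values were 4.48, 4.51 and 4.54 on the mutant and 4.59 and 4.75 on the wt arrays, so that the groups did not overlap. The log2 difference was 0.16 (SE 0.08, 95% interval -0.02 to 0.35, adjusted p = 0.406), and 0.082 without wt replicate 2. On 207016_s_at, at the 9.67th percentile, the values were 3.43, 3.50 and 3.26 against 3.23 and 3.67, with wt replicates 1 and 2 as the lowest and highest arrays. The difference there was 0.05 (SE 0.13), and it was -0.16 without wt replicate 2.

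**Figure D2:**
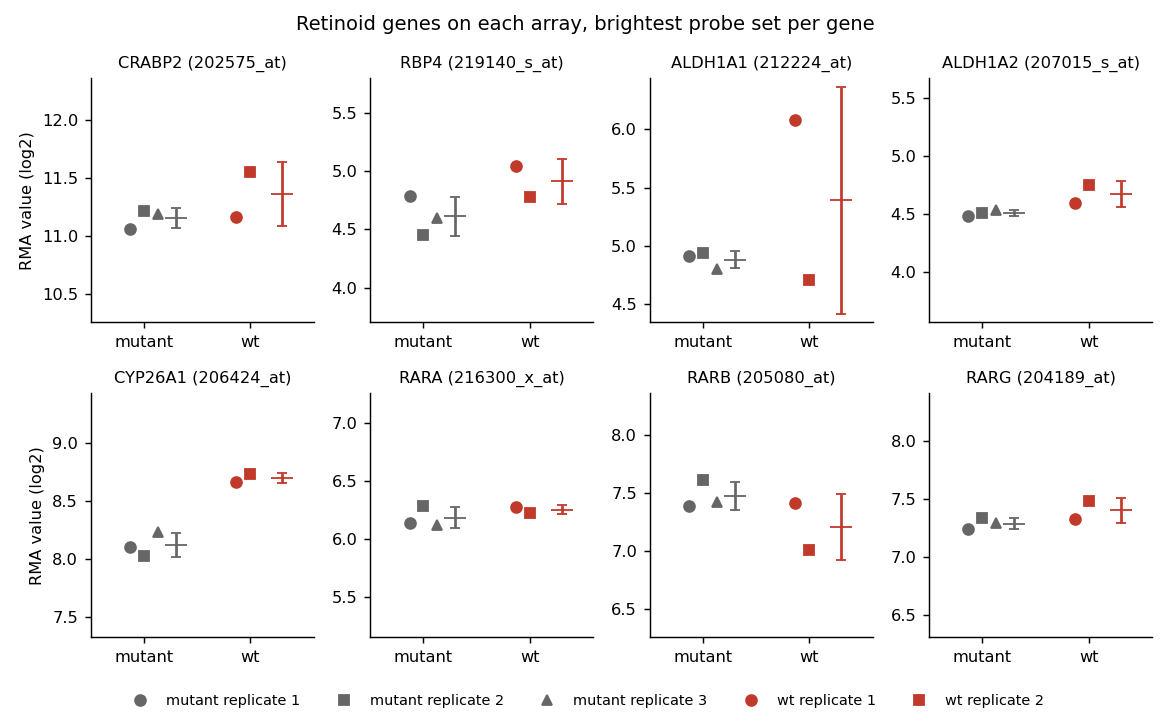
RMA values (log2, y axis, with the same span in each panel) of the brightest probe set of each of the 8 genes on 3 mutant (grey) and 2 wt (red) arrays; symbols are replicates, and bars are the mean and SD. The wt arrays of CYP26A1, at 8.67 and 8.73, lie above the mutant arrays, while for ALDH1A1 wt replicate 1 alone is high, at 6.08.

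Among the carriers, CRABP2, which delivers retinoic acid to the receptors, was measured by a bright probe set. On 202575_at, at the 97.7th percentile, the RMA values were 11.06, 11.22 and 11.20 on the mutant arrays and 11.17 and 11.56 on the wt arrays. Only wt replicate 2 was above the mutant arrays, and wt replicate 1 lay among them. The log2 difference of 0.20 (SE 0.12, 95% interval -0.07 to 0.48, adjusted p = 0.487) was 0.010 without wt replicate 2 and 0.40 without wt replicate 1.

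RBP4, the retinol carrier that liver secretes into plasma, was measured by a pair of probe sets. On 219140_s_at the RMA values were 4.78, 4.45 and 4.60 on the mutant arrays and 5.05 and 4.78 on the wt arrays. The groups overlapped, since wt replicate 2 was just below mutant replicate 1. The log2 difference was 0.30 (SE 0.12, 95% interval 0.02 to 0.58), which did not pass (adjusted p = 0.313), and it ranged from 0.17 to 0.44 with 1 array left out. On 222049_s_at, at the 14.9th percentile, both wt arrays (3.82 and 3.92) were above the mutant arrays (3.81, 3.80 and 3.60), though narrowly in the case of wt replicate 1, and the difference was 0.14 (SE 0.092), and 0.067 without mutant replicate 3. Over the same arrays the sum of the hepatic and visceral endoderm markers was 1301, 789 and 1409 on mutant replicates 1 to 3 and 1699 and 1053 on wt replicates 1 and 2; its part in the values of RBP4 was not tested.

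None of the 12 probe sets of the receptors passed. For RARG the wt mean was higher on 3 of 3 probe sets, for RARA on 3 of 4 and for RARB on 1 of 5. RARG had RMA values of 7.24, 7.33 and 7.29 on the mutant and 7.32 and 7.48 on the wt arrays of 204189_at, where wt replicate 1 fell among the mutant arrays. On 204188_s_at they were 5.99, 6.0 and 6.08 against 6.15 and 6.29, and on the very dim 217178_at 3.06, 3.12 and 2.90 against 3.30 and 3.12. On the last of these, wt replicate 2 exceeded mutant replicate 2 only narrowly. The log2 differences of RARG were 0.11 (SE 0.082), 0.20 (SE 0.081, 95% interval 0.01 to 0.38, adjusted p = 0.324) and 0.19 (SE 0.097). Without wt replicate 2 the first 2 were 0.036 and 0.12, and without wt replicate 1 the third was 0.096.

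RARB, the receptor gene that carries the repeat shown above, had no probe set with separated groups. On its brightest, 205080_at, the RMA values were 7.39, 7.61 and 7.43 on the mutant arrays, 7.41 on wt replicate 1 and 7.01 on wt replicate 2. Only wt replicate 2 was low. The log2 difference was -0.27 (SE 0.13, 95% interval -0.56 to 0.03, adjusted p = 0.395), and without wt replicate 2 it was -0.065. The other 4 probe sets of RARB gave differences of -0.0019 (208530_s_at), -0.06 (208412_s_at), -0.21 (217020_at) and 0.11 (208413_at), with SE from 0.095 to 0.15. On their brightest probe sets RARB and CYP26A1, which share the repeat, gave -0.27 and 0.58, and the difference between the genes was not tested.

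RARA, a receptor made in most tissues, gave small differences. On 216300_x_at the RMA values were 6.14, 6.29 and 6.12 on the mutant and 6.28 and 6.23 on the wt arrays, and on 203750_s_at 6.11, 6.02 and 5.95 against 6.04 and 6.04. In each case both wt arrays lay within the range of the mutant arrays. Over the 4 probe sets the log2 difference ranged from -0.05 to 0.07, and the widest 95% interval, that of 211605_s_at, ran from -0.23 to 0.37. Those of 203749_s_at, 203750_s_at and 211605_s_at each changed sign when 1 mutant array was left out.

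The genes whose pattern over the 5 arrays was nearest to a member were looked up for the 3 members with the widest range. Each gene was taken at its brightest probe set and centred on its mean, and nearness is the root mean square distance on the log2 scale, over 5 arrays that include the difference between groups. Nearest to CYP26A1 were FGF4 (distance 0.03), a growth factor of embryonic stem cells, POU5F1B (0.03), on a probe set that cannot be told apart from the near-identical POU5F1, and GPR176 (0.04), an orphan receptor. The RMA values of FGF4 were 6.81, 6.81 and 6.96 on the mutant and 7.41 and 7.42 on the wt arrays, and those of POU5F1B were 10.07, 9.98 and 10.19 against 10.63 and 10.78. As for CYP26A1, mutant replicate 3 was the highest of its group and both wt arrays were above it.

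Nearest to ALDH1A1 were COL4A3 (distance 0.15), a basement membrane collagen, DKK1 (0.16), a secreted Wnt antagonist, and ALDH1A3 (0.26), the third retinal-oxidizing ALDH1A enzyme. DKK1 was at 7.31, 7.49 and 7.28 on the mutant arrays, 8.31 on wt replicate 1 and 7.44 on wt replicate 2. These genes shared the high value of wt replicate 1. Nearest to RARB were BANK1, SMPDL3A and NRXN3 (distances 0.02, 0.02 and 0.03), each with its lowest value on wt replicate 2. With so many genes and 5 arrays, near patterns are a description only.

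**Figure D3:**
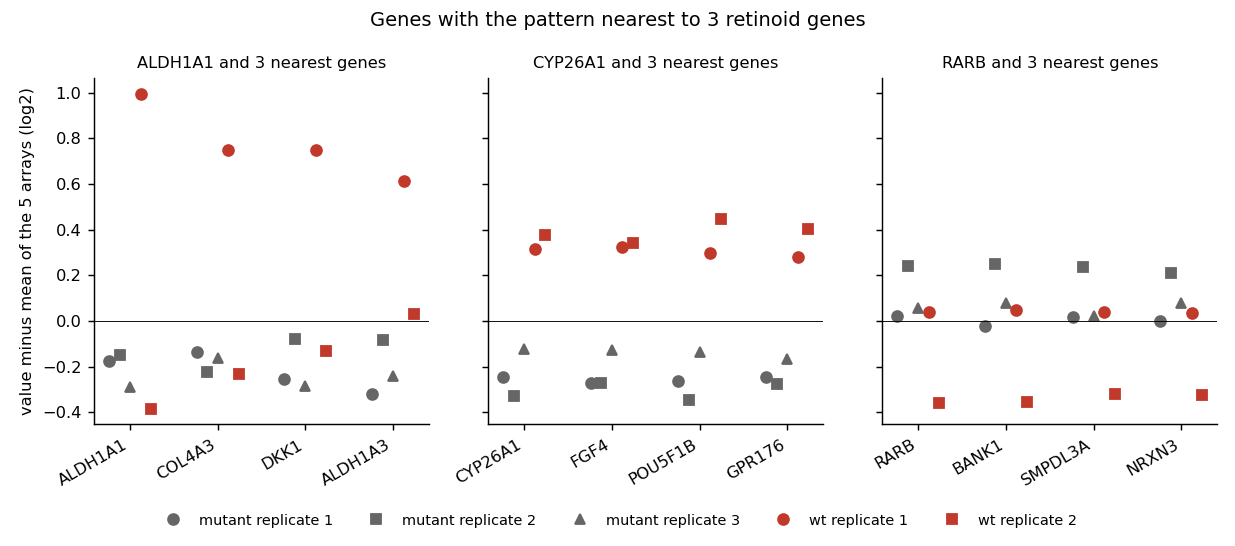
RMA values minus the mean of the 5 arrays (log2, y axis) for ALDH1A1, CYP26A1 and RARB and the 3 genes nearest to each, with grey for mutant and red for wt arrays and symbols for replicates. ALDH1A1 and its neighbours are set apart by wt replicate 1, CYP26A1 and its neighbours by both wt arrays, and RARB and its neighbours by wt replicate 2.

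In the rest of the pathway no gene passed. A list of 48 further carriers, enzymes, RXR partners and co-regulators had 32 measured genes, of which 0 rose and 0 fell by limma and 32 did not pass, with 2 higher and 1 lower at an unadjusted p under 0.05. The methods' t-test gave 0 after adjustment and 1 at an unadjusted p under 0.05. Their wt mean was higher in 23 and lower in 9, the median log2 difference was 0.03 compared to 0.025 over all probe sets tested, and both wt arrays were above the mutant arrays for 6 genes and below for 2. Over all probe sets, 14.4% had an unadjusted p under 0.05 and 32.7% had groups that did not overlap, so neither count, 3 and 8 of 32, stood above the background. All 5 measured carriers and uptake proteins had a higher mean in wt, by 0.09 to 0.48, against 57.9% of all probe sets. The groups overlapped for STRA6 and for TTR, whose difference was -0.24 without wt replicate 1. A lower mean was seen for 3 of 4 further receptors (RXRA, RXRB and PPARD), with log2 differences from -0.08 to -0.10. None of these genes passed the threshold.

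The smallest adjusted p-values of this list belonged to RLBP1, ALDH1A3, NRIP1 and FABP5. RLBP1, the retinal carrier of the visual cycle, was at 4.79, 4.56 and 4.54 on the mutant and 5.02 and 5.19 on the wt arrays, a log2 difference of 0.48 (SE 0.1, adjusted p = 0.107). ALDH1A3 was at 7.30, 7.53 and 7.38 against 8.23 and 7.65, and unlike ALDH1A1 both of its wt arrays were above the mutant arrays. Its difference was 0.54 (SE 0.16, adjusted p = 0.199), but 0.25 without wt replicate 1 and 0.83 without wt replicate 2. FABP5, a fatty acid carrier that also binds retinoic acid, gave 0.25 (SE 0.12, adjusted p = 0.387), and 0.13 without mutant replicate 2. NRIP1, a nuclear receptor co-repressor, gave -0.22 (SE 0.086, adjusted p = 0.303), and -0.13 without wt replicate 2. CYP26B1, the other measured enzyme of the CYP26 family, was very dim and gave -0.22 (SE 0.13) with overlapping groups, against 0.58 for CYP26A1; the difference between the 2 genes was not tested.

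Further genes known to respond to retinoic acid did not pass either. This list leaves out CYP26A1, which passed, and RARB, since both are members. Of 36 listed, 26 were measured, of which 0 rose and 0 fell by limma, with none higher and 3 lower at an unadjusted p under 0.05 (none and 2 by the methods' t-test, and 0 after adjustment). The median log2 difference was -0.02, with 12 means higher and 14 lower, both wt arrays above the mutant arrays for 2 genes and below for 5. Over both directions these counts, 3 and 7 of 26, were likewise not above the 14.4% and 32.7% of all probe sets. By direction, the 3 of 26 that were lower stand beside 6.37% of all probe sets, and the 5 of 26 with wt below beside 12.5%. The 0 that were higher stand beside 8.06%, and the 2 with wt above beside 20.3%. Whether the list leans downward was not tested. The 6 measured HOX genes, which retinoic acid induces along the trunk axis, gave differences from -0.05 to 0.21, all with overlapping groups. Of the measured genes, NRIP1, DHRS3, CYP26B1 and STRA6 stand in both lists.

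TGM2, a tissue transglutaminase that retinoic acid induces, had the lowest difference of this list. On 201042_at its RMA values were 8.11, 8.24 and 8.61 on the mutant arrays and 7.53 and 7.10 on the wt arrays, all wt values being lower. The log2 difference was -1.0 (SE 0.17, adjusted p = 0.0605), just short of the threshold, and it passed in 3 of the other settings without a block. Its probe sets 211003_x_at and 211573_x_at gave -0.68 (SE 0.16) and -0.73 (SE 0.21), and the dimmest, 216183_at, gave -0.0079 (SE 0.074). The study lists TGM2 among genes chosen for their change on these arrays, so its value is not independent evidence of a direction. The summed level of the mesenchymal markers given above was also lower on the wt arrays, and its part in the value of TGM2 was not tested. MEIS2, a homeobox partner of HOX proteins, was at 10.08, 10.22 and 10.07 against 9.86 and 9.78, a difference of -0.31 (SE 0.083, adjusted p = 0.168). RET, a receptor tyrosine kinase, gave 0.16 (SE 0.077, adjusted p = 0.41).

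**Figure D4:**
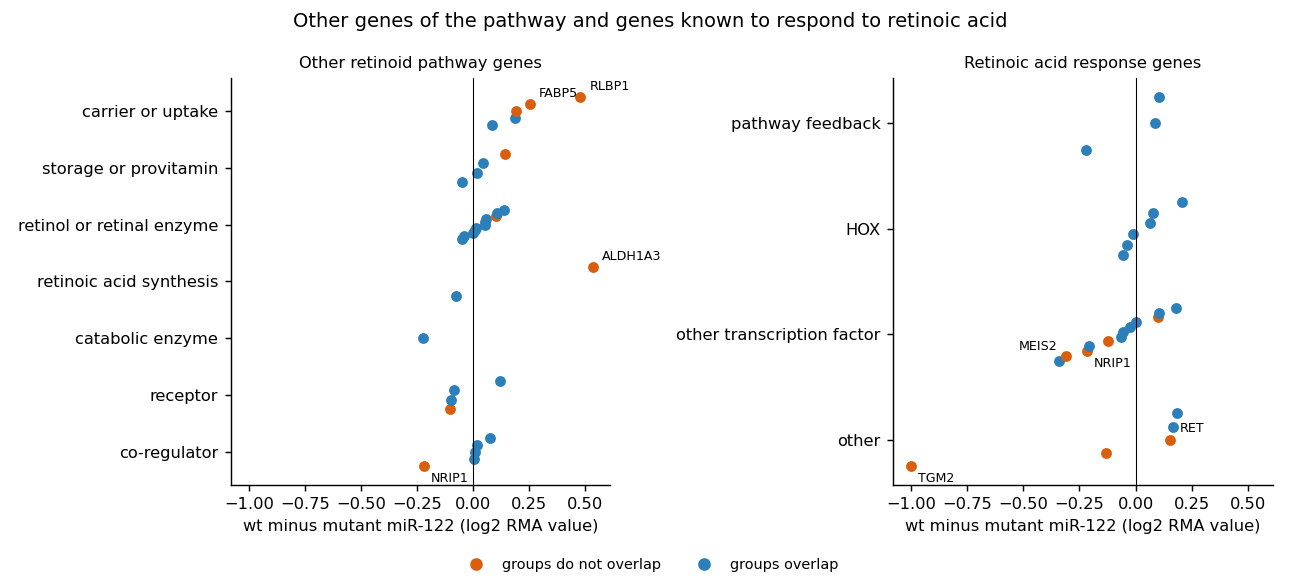
Log2 difference of wt minus mutant miR-122-expressing cells (x axis), 1 point per gene at its brightest probe set, in rows by role. On the left are 32 other pathway genes, and on the right 26 genes, members left out, known to respond to retinoic acid. Orange points are genes whose groups do not overlap; none passed, and TGM2 at -1.0 lies farthest from 0.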

How the data were processed

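The deposited values are log2 intensities that the authors made with RMA from 5 Affymetrix Human Genome U133A 2.0 arrays, without pooling replicates; scanner files were not used here. RMA brings all arrays to a common distribution, so a shift of all genes would not be seen. Array medians lay between 6.32 and 6.36, and arrays have no read depth, so their number limits the precision.

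After removal of 62 Affymetrix controls, the model of limma 3.58.1 (R 4.3.3; lmFit, then eBayes) was fitted to 22215 probe sets with a term for group alone, which left 3 residual and 4.87 prior degrees of freedom, and p-values were adjusted over all of them by Benjamini-Hochberg. Symbols came from GEO's platform annotation and were updated by Entrez ID for 19052 probe sets. In all, 19064 name 1 gene, 1043 several and 2108 are unnamed here. A listed gene was taken at its probe set of highest mean. Probe sets ending in _s_at or _x_at can match several transcripts. Sequences came from RefSeq tables (GRCh38.p14), and figures were drawn with matplotlib 3.10.9.

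The members and lists were chosen with earlier results of these data known, and the lists were written from general knowledge. Named genes are the members, the 4 genes of each retinoid list whose adjusted p was smallest, and the 3 genes nearest to each of 3 members. RXRA, RXRB, PPARD, CYP26B1, DHRS3, STRA6, TTR, MEIS1, the HOX genes, DNMT3B, UTF1 and HSD3B1 fall outside this rule. These genes, and the carriers and uptake proteins as a group, were chosen after their values were seen. Alternatives were a t-test (that of the methods), eBayes with trend and robust options, a filter on dim probe sets, exclusion of probe sets that can match several transcripts, the replicate number as a block, array weights, centring of arrays, averaging the probe sets of a gene, and leaving out each array.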

Additional observations from a re-analysis of the deposited data

How the results depend on the processing

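The rise of CYP26A1 kept its direction in all 12 alternatives, at 0.53 to 0.63, and its call with array weights, centring, the intensity trend, both filters and the replicate block (adjusted p from 0.00111 to 0.0431). By the methods' t-test, and without any 1 array, 0 member probe sets passed after adjustment (0 to 0 over the leave-one-out fits). Groups did not overlap on 1 of the 4 member probe sets above the median level (37.1% of all such probe sets) and on 2 of the 8 whose names do not mark several transcripts (32.9%), and on 6 to 11 of 19 with an array left out, where 43.6% to 60.1% of all probe sets did not overlap. The median over the members ranged from 0.07 to 0.16. Of the response genes, TGM2 was the 1 that passed with the intensity trend, with the filter on dim probe sets, and without probe sets that can match several transcripts. A sign changed with an array left out on 6 of the 19 member probe sets, none of them past the threshold.

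The replicate block takes same-numbered arrays as pairs, although nothing says that they are. Deviations from the group means correlated at 0.15 and 0.12 for the 2 same-numbered pairs. With mutant arrays of other numbers, the correlations were -0.12 to -0.019 for wt replicate 1 and -0.15 to 0.019 for wt replicate 2. The same-numbered values were the higher, but deviations of 2 wt arrays from their mean mirror each other, so the pairs are not separate evidence. Pairing was left undecided, and the main fit has no block. With the replicate block, which leaves 1 residual degree of freedom, 1 member passed (CYP26A1, at 0.63), as did 2 other pathway genes (RLBP1 at 0.43 and ALDH1A3 at 0.52) and 2 response genes (TGM2 at -0.86 and MEIS1 at -0.45).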
